A study of Mus musculus with 6 samples.

Results

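Proteasome and MHC class I processing genes were examined in mouse pre-B leukaemia cells that had or had not received Cre recombinase against a floxed Bcor allele. The set held every gene whose symbol is Psma to Psmg followed by a number, together with Tap1, Tap2, Tapbp, Tapbpl, B2m, Erap1 and Nlrc5. Where several probe sets named a gene alone, the one with the highest mean over the arrays was taken. This gave 55 genes of 19938 measured: 45 proteasome genes outside the immunoproteasome, 3 immunoproteasome genes (Psmb8, Psmb9 and Psmb10) and 7 class I processing genes.

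The Cre-ERT2 group was BCR-ABL1-transformed pre-B cells of strain C57Bl/6 with genotype Bcor fl/Y, transduced with PMIP-CRE-ERT2, a vector for a Cre recombinase that tamoxifen switches on. The ERT2 group was the same kind of cell, with the same strain and genotype, transduced with PMIP-ERT2, which lacks Cre. Both groups carried the BCR-ABL1 oncogene, were resistant to puromycin and were given 4-hydroxytamoxifen at 0.5 micromolar for 2 days. Each group had 3 arrays, and the labels do not say whether these came from separate cultures, animals or clones. A p-value here therefore covers the variation among these arrays alone, and that variation may be technical. Cre activity and loss of Bcor cannot be told apart, because the 2 groups differ in both.

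The proteasome degrades ubiquitin-tagged proteins. Its barrel, the 20S core, has rings of alpha and beta subunits, and the 19S cap recognises, unfolds and feeds in the substrate. Interferon can replace the catalytic beta subunits with those of the immunoproteasome. The peptides pass into the endoplasmic reticulum through the TAP transporter, are trimmed by ERAP1 and are loaded with the help of tapasin onto class I molecules, which pair a heavy chain with beta-2-microglobulin and show the peptide to CD8 T cells.

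Values are log2 expression values, and a fold change is Cre-ERT2 minus ERT2. A gene was called when limma gave it an adjusted p under 0.05 (Benjamini-Hochberg over all 19938 genes). Bcor had log2 values of 9.08, 9.22 and 9.18 in the Cre-ERT2 arrays and 10.07, 10.11 and 10.17 in the ERT2 arrays, so all Cre-ERT2 arrays lay below all ERT2 arrays (log2 fold change -0.96, SE 0.0491, limma adjusted p = 2.11e-05). Which exons are floxed and where the probes lie is not given in the sources used here. Of all genes 7.03% were called, 4.05% higher and 2.98% lower. Higher genes were 57.6% of the calls, 71.2% after cyclic loess between arrays, 39.4% with array weights and 47.6% at an adjusted p under 0.1, so the majority direction was not stable. The number called was 1402. Leaving out the first or second Cre-ERT2 array gave 804 or 743 calls, and leaving out the first or second ERT2 array gave 770 or 934. The median fold change over all genes was -0.037 on the log2 scale.

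Of the 55 genes 3 were called: Tapbp and Tap1 rose, Psmg4 fell, and the other 52 did not pass. This share of 5.45% lies near the 7.03% called among all genes. Groups did not overlap for 13 of the 55 (23.6%), against 29.9% of all genes. The changes were small, from -0.17 for Psmg4 to 0.28 for Tapbp on the log2 scale. The 7 class I processing genes and the 3 immunoproteasome genes all had positive fold changes, as had 31.8% of all genes, while 35 of the other 45 proteasome genes had negative ones.

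**Figure D1:**
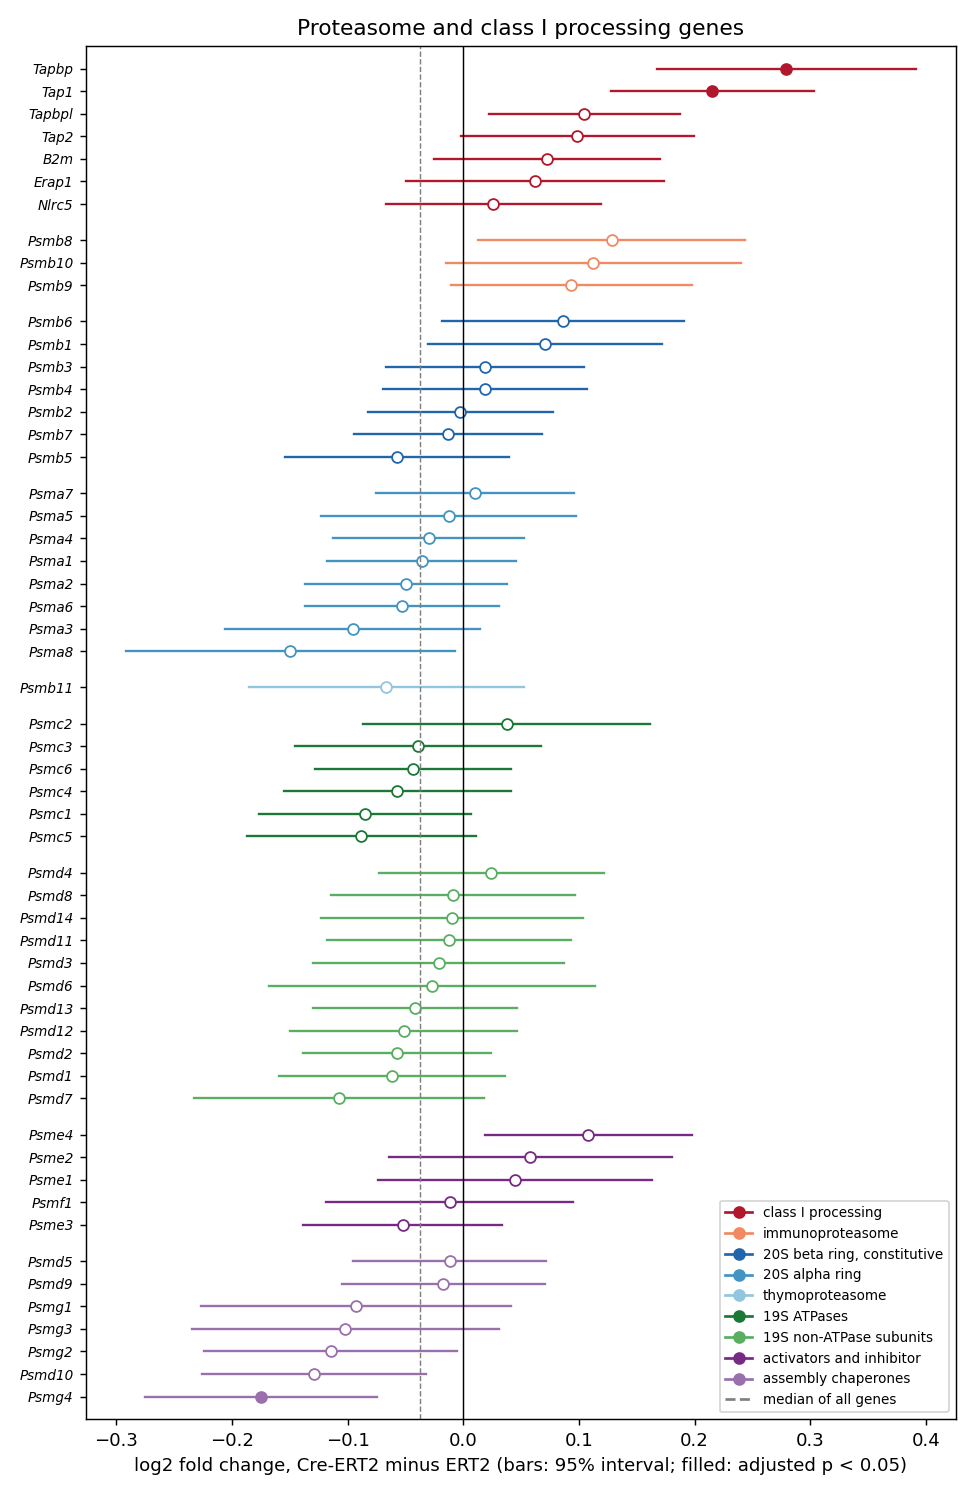
Log2 fold change (Cre-ERT2 minus ERT2, horizontal axis) of each of the 55 genes, ordered by role. Points are limma estimates from 3 arrays per group, bars are 95% intervals and filled points had an adjusted p under 0.05; Tapbp and Tap1 lie at the right, Psmg4 at the left, and the dashed line marks the median of all genes at -0.037.

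Tapbp encodes tapasin, which bridges the transporter and the empty class I molecule and edits the peptide. Its log2 values were 11.58, 11.51 and 11.49 in the Cre-ERT2 arrays, against 11.22, 11.19 and 11.33 in the ERT2 arrays. The 3 Cre-ERT2 arrays lay above all ERT2 arrays, a 1.21-fold rise (log2 fold change 0.28, SE 0.0492, limma adjusted p = 0.0111). Without ERT2 replicate 1 the fold change was 0.27 and the call ended (limma adjusted p = 0.0526).

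Tap1 encodes one chain of the peptide transporter. It had log2 values of 10.95, 10.92 and 10.98 with Cre-ERT2 and 10.70, 10.74 and 10.76 with ERT2. The groups did not overlap, and the rise was 1.16-fold (log2 fold change 0.22, SE 0.0386, limma adjusted p = 0.0120). The call ended without ERT2 replicate 1 (limma adjusted p = 0.0654) or Cre-ERT2 replicate 1 (0.0511), with fold changes of 0.20 and 0.21. Tap2, the other chain of the transporter, had log2 values of 11.12, 11.04 and 11.14 with Cre-ERT2 and 10.99, 10.96 and 11.05 with ERT2. Its groups overlapped through Cre-ERT2 replicate 2, and its fold change of 0.099 (SE 0.0443) had a 95% interval from -0.0022 to 0.20 (limma adjusted p = 0.226). Whether Tap1 and Tap2 differ in response was not tested.

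Tapbpl encodes TAPBPR, a tapasin relative that edits peptides outside the loading complex. Its log2 values were 8.99, 9.03 and 9.02 in Cre-ERT2 arrays and 8.92, 8.91 and 8.88 in ERT2 arrays. The Cre-ERT2 arrays lay above the ERT2 arrays, with a fold change of 0.10 (SE 0.0363) that did not pass (limma adjusted p = 0.131). B2m, which encodes beta-2-microglobulin, had 13.87, 13.88 and 13.78 with Cre-ERT2 and 13.80, 13.77 and 13.74 with ERT2. Cre-ERT2 replicate 3 fell within the ERT2 range, and the fold change of 0.072 had a 95% interval from -0.025 to 0.17 (limma adjusted p = 0.349). Erap1, the peptide-trimming enzyme, had 11.33, 11.39 and 11.42 with Cre-ERT2 and 11.37, 11.35 and 11.23 with ERT2. Its groups overlapped, and the fold change of 0.062 had an interval from -0.049 to 0.17 (limma adjusted p = 0.480).

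Over the 7 class I processing genes the median fold change was 0.099, against -0.037 over all genes. All Cre-ERT2 arrays lay above all ERT2 arrays for 3 of the 7, against 9.56% of all genes. In each array the median deviation of these 7 genes from their mean over the 6 arrays was 0.066, 0.067 and 0.070 in Cre-ERT2 replicates 1 to 3, and -0.036, -0.048 and -0.064 in ERT2 replicates 1 to 3. The groups were thus apart in this median. The same value over all genes ran from -0.028 to 0.0048 in the Cre-ERT2 arrays and from 0.0044 to 0.032 in the ERT2 arrays.

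**Figure D2:**
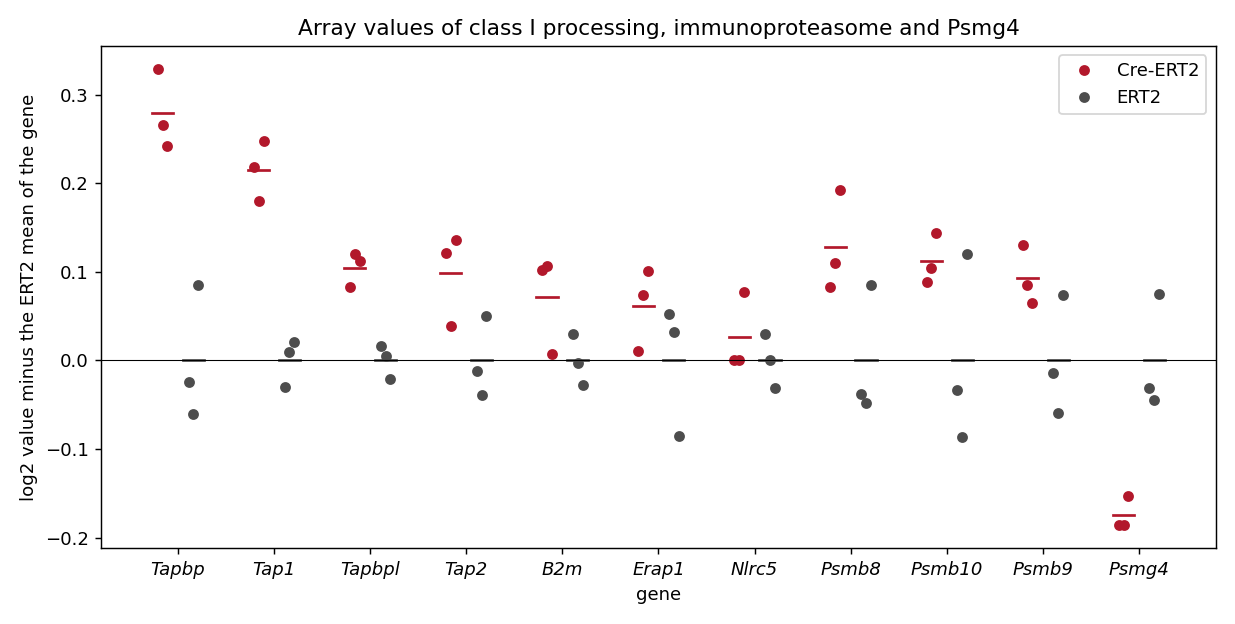
Log2 value of each array minus the gene's ERT2 mean (vertical axis) for the 7 class I processing genes, the 3 immunoproteasome genes and Psmg4. Points are arrays, short lines are group means (3 arrays each); the groups are apart for Tapbp, Tap1, Tapbpl and Psmg4 and overlap for the other 7 genes.

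Nlrc5, the transactivator that binds class I promoters, is covered by 19 probe sets with 1 symbol, which disagreed. The one of highest mean had log2 values of 11.77, 11.77 and 11.85 with Cre-ERT2 and 11.80, 11.77 and 11.74 with ERT2. These overlapped, with a fold change of 0.026 (SE 0.0407, limma adjusted p = 0.732). Across the 19 probe sets the fold change ran from -0.036 to 0.30 with a median of 0.10, and 17 were positive. In 5 of them the Cre-ERT2 arrays all lay above the ERT2 arrays, as in 9.5% of all single-symbol probe sets, and 5 had an unadjusted p under 0.05, against 22.3%. One probe set had an adjusted p under 0.05 over all 21789 single-symbol probe sets (0.0148, limma), where 6.33% were called. The probe sets read parts of 1 gene and are not replicates.

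**Figure D3:**
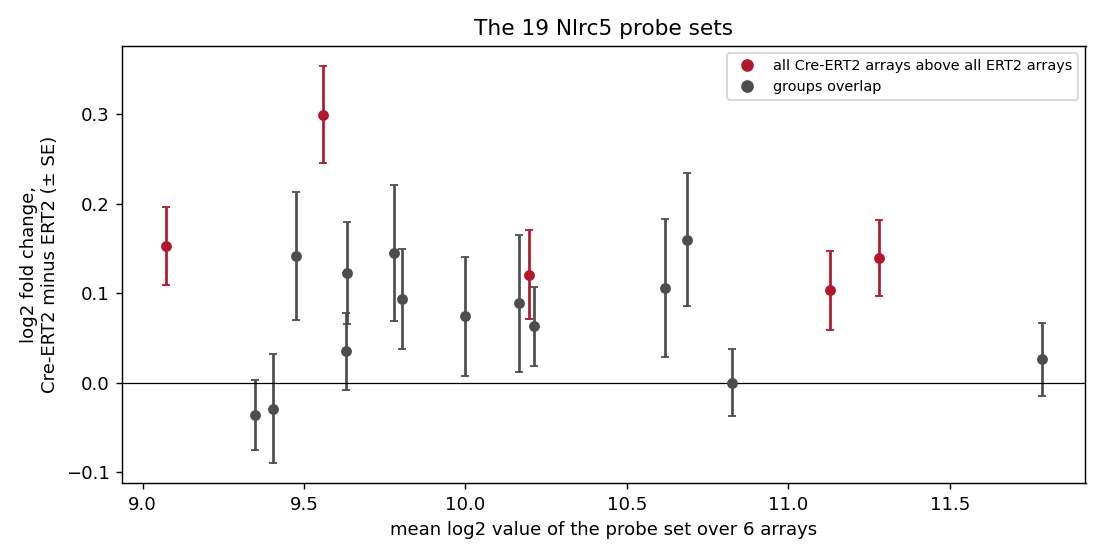
Log2 fold change (Cre-ERT2 minus ERT2, vertical axis) with its SE against mean log2 value (horizontal axis) for the 19 Nlrc5 probe sets. The probe set of highest mean lies near 0 at 0.026, while 5 others (red) have all Cre-ERT2 arrays above all ERT2 arrays.

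None of the immunoproteasome genes was called by limma (0 of 3, against 7.03% of all genes). An unadjusted p under 0.05 was found for 1 of 3, where 23% of all genes had one. Psmb8, which replaces Psmb5 at the chymotrypsin-like site, had log2 values of 11.60, 11.63 and 11.71 in Cre-ERT2 arrays and 11.48, 11.47 and 11.61 in ERT2 arrays. Its fold change was 0.13 (SE 0.0507, 95% interval 0.013 to 0.24, limma adjusted p = 0.176). The groups overlapped through ERT2 replicate 3. Psmb10, which replaces Psmb7 at the trypsin-like site, had 11.11, 11.13 and 11.17 with Cre-ERT2 and 10.99, 10.94 and 11.14 with ERT2. ERT2 replicate 3 again lay within the Cre-ERT2 range, and the fold change was 0.11 (95% interval -0.015 to 0.24, limma adjusted p = 0.270). Psmb9, which replaces Psmb6 at the caspase-like site, had 11.42, 11.37 and 11.35 with Cre-ERT2 and 11.27, 11.23 and 11.36 with ERT2. The pattern was the same, with a fold change of 0.093 (95% interval -0.011 to 0.20, limma adjusted p = 0.263). The median over these 3 genes was 0.11, and it was 0.17 without ERT2 replicate 3 and 0.069 without ERT2 replicate 2.

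The constitutive partners had fold changes of -0.057 for Psmb5, 0.086 for Psmb6 and -0.013 for Psmb7. Psmb8 minus Psmb5 came to 0.19, and this within-array difference was higher in every Cre-ERT2 array than in every ERT2 array. The difference came to 0.0073 for Psmb9 minus Psmb6 and 0.13 for Psmb10 minus Psmb7, and both overlapped between the groups. Among single genes 29.9% had groups that did not overlap, and the share among pairs of genes was not computed. The differences within these pairs were not tested.

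Psmb9 and Tap1 stand head to head on chromosome 17, and the stretch between their starts is shown because both genes use it. In the RefSeq table (build GRCm38.p6) it is 225 bases long, chr17:34187331-34187555, given here on the plus strand from the Psmb9 start to the Tap1 start. The 250 bases before the starts of Tapbp (chr17:33919228-33919477, plus strand), Psmb8 (chr17:34197945-34198194, plus strand) and B2m (chr2:122147437-122147686, plus strand) are shown beside it, as a second gene that rose and as genes with interferon-type letters. Capitals mark matches to the CCAAT box (CCAAT, or ATTGG on the other strand), to the core of the interferon-stimulated response element (GAAA, any 2 bases, GAAA) and to the gamma-activated site (TTCNNNGAA).
Tap1-Psmb9: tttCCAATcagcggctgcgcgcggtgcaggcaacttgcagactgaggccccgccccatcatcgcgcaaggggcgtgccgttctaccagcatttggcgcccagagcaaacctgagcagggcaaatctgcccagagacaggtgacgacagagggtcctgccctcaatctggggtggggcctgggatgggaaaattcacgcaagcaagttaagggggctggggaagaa
Tapbp: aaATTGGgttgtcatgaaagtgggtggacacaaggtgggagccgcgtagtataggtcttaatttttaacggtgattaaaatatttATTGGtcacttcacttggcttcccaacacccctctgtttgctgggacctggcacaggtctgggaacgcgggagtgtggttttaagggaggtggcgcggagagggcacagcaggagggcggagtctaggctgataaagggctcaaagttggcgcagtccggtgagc
Psmb8: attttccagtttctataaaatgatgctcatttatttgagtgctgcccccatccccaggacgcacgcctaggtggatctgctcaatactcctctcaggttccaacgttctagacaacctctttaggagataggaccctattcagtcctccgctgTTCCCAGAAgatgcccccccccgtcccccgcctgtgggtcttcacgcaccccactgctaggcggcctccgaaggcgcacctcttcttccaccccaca
B2m: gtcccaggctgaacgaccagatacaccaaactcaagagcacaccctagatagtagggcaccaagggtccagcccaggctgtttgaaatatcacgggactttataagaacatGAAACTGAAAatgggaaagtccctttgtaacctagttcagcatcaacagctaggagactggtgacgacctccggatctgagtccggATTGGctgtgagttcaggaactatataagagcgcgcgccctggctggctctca

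The table held windows for 44 of the 55 genes, in 47 entries, and each window of 250 bases was searched on both strands. The Tap1-Psmb9 stretch and the Tapbp window held CCAAT letters and no match to the letters of either interferon motif. Variant letters and bases outside the windows were not searched. The B2m window held the response element core, which 2.97% of all 32817 promoter windows hold. So did 3 of 40 windows of the other proteasome genes (7.5%), those of Psmb3, Psmd4 and Psmd9. The Psmb8 window held the gamma-activated letters, which 7.01% of all windows hold. So did 1 of those 40 windows (2.5%), that of Psmg1. Of the 7 windows of immunoproteasome and class I genes, 4 held CCAAT letters, against 33.8% of all windows, but the match in the Tap1 window and that in the Psmb9 window are the same bases of their shared stretch. The antioxidant response element core (TGACNNNGC), to which the proteasome regulator NRF1 binds, was found in 5 of 40 windows of the other proteasome genes (12.5%), among them Psmb5 and Psmb6, against 10.2% of all windows. The letters TTCCTNGAA, a form of the BCL6 element that also fits the gamma-activated letters, were found in 0 of 47 windows, against 1.31% of all windows. A match of letters is a description of the sequence and not a site.

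Tapbp, Psmb9, Tap1, Psmb8 and Tap2 lie in the MHC region of chromosome 17, and their fold changes can be set beside those of their neighbours. The window ran from 5 protein-coding genes before Tapbp to 5 after Tap2 and was set after the data were seen. Of its 27 measured genes 4 rose and 3 fell, where 4.05% of all genes rose and 2.98% fell. Besides Tapbp and Tap1, the class II accessory genes H2-DMa (0.55) and H2-Oa (0.32) rose, while H2-Ob (-0.20), the class II chain gene H2-Eb2 (-0.59) and the zinc finger gene Zbtb22 (-0.22) fell; these neighbours were named after their values were seen. The next genes to Tapbp on either side, Zbtb22 and Rgl2, were at -0.22 and 0.020. Within the window the changes thus ran both ways.

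**Figure D4:**
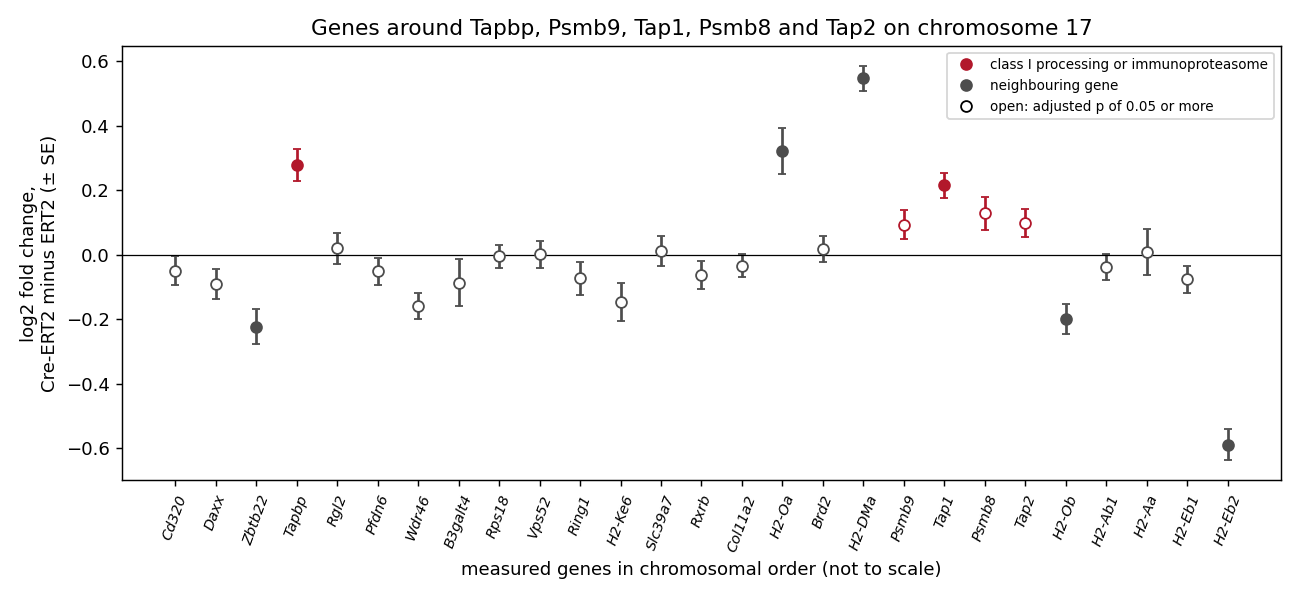
Log2 fold change (Cre-ERT2 minus ERT2, vertical axis) with its SE for the 27 measured genes of the window, in gene order (horizontal axis). Filled points had an adjusted p under 0.05 and red points are class I processing or immunoproteasome genes; the window holds both rises (H2-DMa at 0.55) and falls (H2-Eb2 at -0.59).

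In the constitutive beta ring none of 7 genes was called by limma (0 called, and 0 at an unadjusted p under 0.05). Over all genes the shares were 7.03% and 23%. The median fold change of the ring was 0.019, and the groups overlapped for all 7 genes. Psmb6, the caspase-like catalytic subunit, stood highest, with log2 values of 12.18, 12.22 and 12.29 in Cre-ERT2 arrays and 12.11, 12.12 and 12.21 in ERT2 arrays, a fold change of 0.086 (limma adjusted p = 0.302). Psmb5, the chymotrypsin-like subunit that the drug bortezomib inhibits, stood lowest, with 13.59, 13.56 and 13.61 in Cre-ERT2 arrays and 13.58, 13.67 and 13.68 in ERT2 arrays, a fold change of -0.057 (limma adjusted p = 0.454). The widest 95% intervals of the ring reached from -0.15 to 0.19. Psmb2, a structural beta subunit, was closest between groups, with 13.37, 13.39 and 13.39 in Cre-ERT2 arrays and 13.38, 13.38 and 13.40 in ERT2 arrays.

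In the alpha ring, whose subunits gate the barrel, none of 8 genes was called by limma (0 called, 1 at an unadjusted p under 0.05). These shares were 7.03% and 23% among all genes. Of the 8 genes of the ring 7 had negative fold changes, and their median was -0.043. Psma7 was highest, at 0.010 (Cre-ERT2 12.12, 12.18 and 12.12, ERT2 12.12, 12.12 and 12.15). Psma8, the alpha subunit made in testis, was lowest, at -0.15 (Cre-ERT2 7.35, 7.12 and 7.18, ERT2 7.32, 7.35 and 7.43, limma adjusted p = 0.197). Both overlapped between the groups, and Psma8 was among the dimmest 30% of genes. Cre-ERT2 arrays lay below ERT2 arrays for 3 of the 8 genes, Psma1, Psma3 and Psma6 (chosen after their values were seen), against 20.3% of all genes. Psmb11, the beta subunit of cortical thymic epithelium, averaged 8.03 ± 0.0398 with Cre-ERT2 and 8.10 ± 0.0904 with ERT2 (SD, n = 3 each), with overlapping groups and a fold change of -0.067 (limma adjusted p = 0.477).

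In the 19S cap none of 6 ATPase genes and none of 11 other subunit genes was called by limma (0 of 17). None of the 17 had an unadjusted p under 0.05. Among all genes 7.03% were called and 23% had an unadjusted p under 0.05. Among the ATPases, which unfold the substrate, Psmc2 was highest at 0.038 (Cre-ERT2 12.15, 12.15 and 12.12, ERT2 12.12, 11.99 and 12.19). Psmc5 was lowest at -0.088 (Cre-ERT2 10.81, 10.77 and 10.83, ERT2 10.93, 10.82 and 10.92, limma adjusted p = 0.268). Both genes overlapped between groups, and the median of the 6 was -0.050.

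Among the other cap subunits Psmd4, a ubiquitin receptor, was highest at 0.024 (Cre-ERT2 10.88, 10.89 and 10.88, ERT2 10.89, 10.79 and 10.90). Psmd7, the partner of the deubiquitinase Psmd14, was lowest at -0.11 (Cre-ERT2 12.16, 12.06 and 11.99, ERT2 12.16, 12.12 and 12.25, limma adjusted p = 0.285). Psmd14 itself, chosen after its values were seen, was at -0.0095 with overlapping groups. The median of the 11 genes was -0.027, and the 95% intervals of all 17 cap genes lay between -0.23 and 0.16.

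The assembly chaperones were the one proteasome group with a called gene (1 of 7, 14.3%, against 7.03% of all genes). All 7 had negative fold changes, with a median of -0.10. Among all genes 31.8% had positive fold changes, and the median was -0.037. Psmd5 was positive after quantile normalization (0.013), after cyclic loess (0.012) and without ERT2 replicate 3 (0.0039). Psmg4, which helps to build the alpha ring, had log2 values of 10.30, 10.29 and 10.33 in Cre-ERT2 arrays and 10.45, 10.44 and 10.56 in ERT2 arrays. The groups were apart, and the level with Cre-ERT2 was 0.886 of that with ERT2 (log2 fold change -0.17, SE 0.0439, limma adjusted p = 0.04997). The call lay at the threshold and ended when any one array was left out, with adjusted p from 0.0675 without Cre-ERT2 replicate 3 to 0.169 without Cre-ERT2 replicate 2.

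Psmd10, also called gankyrin, a chaperone of the cap base, had 11.82, 11.78 and 11.73 with Cre-ERT2 and 11.96, 11.88 and 11.89 with ERT2. The groups were apart, and the fold change of -0.13 (SE 0.0424) did not pass (limma adjusted p = 0.116). Psmd5, another chaperone of the cap base, was closest to 0 at -0.012 (Cre-ERT2 11.74, 11.76 and 11.75, ERT2 11.75, 11.74 and 11.79). Psmg1, Psmg2 and Psmg3, the other alpha ring chaperones (chosen after their values were seen), were at -0.093, -0.11 and -0.10, with limma adjusted p between 0.198 and 0.378.

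None of the 5 activator and inhibitor genes was called by limma (0 called, 1 at an unadjusted p under 0.05). The shares over all genes were 7.03% and 23%. Psme4, which encodes the activator PA200 that binds the ends of the barrel, was highest at 0.11 (Cre-ERT2 12.20, 12.18 and 12.22, ERT2 12.11, 12.12 and 12.04, limma adjusted p = 0.147), and its groups were apart. Psme3, the nuclear activator, was lowest at -0.052 (Cre-ERT2 13.27, 13.30 and 13.32, ERT2 13.31, 13.37 and 13.35, limma adjusted p = 0.438), with overlapping groups. The interferon-inducible activator genes Psme1 and Psme2 (chosen after their values were seen) were at 0.045 and 0.058 with overlapping groups.

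Over the 45 proteasome genes outside the immunoproteasome the median fold change was -0.036, beside -0.037 over all genes. Limma called 1 of them (2.22%, against 7.03% of all genes), with 5 at an unadjusted p under 0.05 (11.1%, against 23%). The 95% intervals of the 45 genes lay between -0.29 and 0.20, and the lower end was that of Psma8, among the dimmest 30% of genes. Fold changes were positive for 10 of the 45 genes (22.2%), against 31.8% of all genes, and for 19 of the 45 after cyclic loess between arrays. Array by array the median deviation of the 45 genes was -0.0027, -0.011 and -0.015 in Cre-ERT2 replicates 1 to 3, and 0.016, -0.0052 and 0.035 in ERT2 replicates 1 to 3, so the groups overlapped. For the immunoproteasome genes it was 0.032, 0.046 and 0.088 with Cre-ERT2 and -0.089, -0.11 and 0.027 with ERT2, so ERT2 replicate 3 came close to Cre-ERT2 replicate 1.

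**Figure D5:**
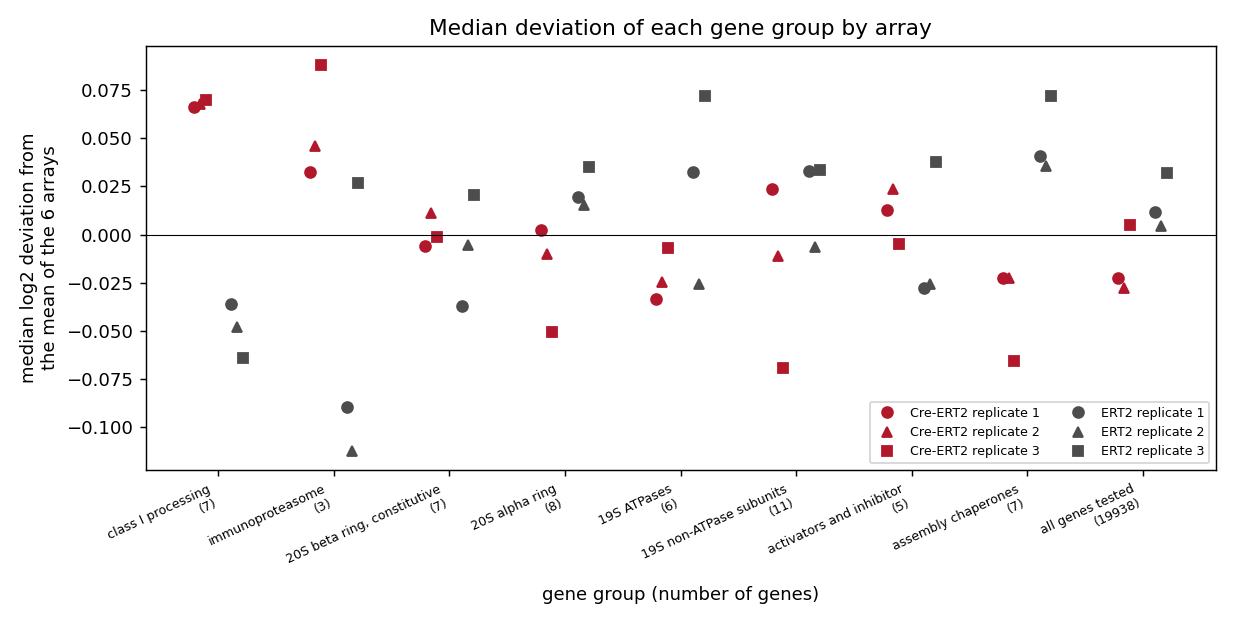
Median log2 deviation from the mean of the 6 arrays (vertical axis) for each gene group and for all 19938 genes, 1 point per array (3 Cre-ERT2 in red, 3 ERT2 in grey). The Cre-ERT2 arrays stand above the ERT2 arrays for class I processing (0.066 to 0.070 against -0.064 to -0.036). For the immunoproteasome they do so narrowly (0.032 to 0.088 against -0.11 to 0.027), and each of its 3 genes overlaps between the groups. For the alpha ring and the assembly chaperones the Cre-ERT2 arrays stand below the ERT2 arrays.

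Psma3, Psma5, Psmb3, Psmc1 and Psmd2 have 2 or 3 probe sets under 1 symbol, and which gene copy each one reads is not given. Their fold changes had 1 sign within each gene, from -0.10 to -0.092 for the 3 of Psma3 and from -0.096 to -0.085 for the 2 of Psmc1.

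Other genes of the pathway were read from lists drawn up by function. Of 11 measured class I heavy chain and related genes 3 rose, 0 fell and 8 did not pass, with a median of -0.0012. That is 27.3% called, against 7.03% of all genes. Of the 21 genes of the list 10 were not measured. H2-Q4, a nonclassical chain of the Qa region, rose by 0.37 (Cre-ERT2 10.68, 10.70 and 10.71, ERT2 10.32, 10.35 and 10.30, limma adjusted p = 0.000510). H2-Bl rose by 0.21 and H2-T24 by 0.21, and the calls of H2-Bl and H2-T24 ended in 4 and 5 of the 6 fits that left out 1 array (limma adjusted p up to 0.1005 and 0.146). These genes are close copies of one another, so their probes may read more than 1 gene. The classical chains H2-K1 and H2-D1 are covered only by probe sets that name several genes and are not reported here.

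Of 20 measured regulators of proteasome and class I genes 3 rose and 2 fell (25% called, against 7.03% of all genes). Their median was -0.029. The genes that rose were Stat2, a carrier of the interferon signal, by 0.39 (Cre-ERT2 10.43, 10.44 and 10.51, ERT2 10.09, 10.01 and 10.12, limma adjusted p = 0.00134), its partner Irf9 by 0.27 and the interferon-induced factor Irf1 by 0.27. Of the same list Irf2 (0.14), Stat3 (0.12) and Irf8 (-0.045), chosen after their values were seen, did not pass. Averaging the 2 Irf1 probe sets gave a fold change of 0.16 and ended its call (limma adjusted p = 0.0655). Nfe2l1, which encodes NRF1, the factor that raises proteasome genes when proteasome activity is short, had 11.25, 11.22 and 11.25 with Cre-ERT2 and 11.38, 11.41 and 11.45 with ERT2. It fell by 0.17 (limma adjusted p = 0.0315), and this call ended when any one array was left out (up to 0.135). Ciita, the class II transactivator (chosen after its values were seen), fell by 0.16. The class I cofactors Rfx5 (-0.034), Rfxap (-0.031) and Rfxank (-0.053), chosen after their values were seen, did not pass.

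Of 15 measured genes of the interferon gamma pathway 4 rose, 1 fell and 10 did not pass (33.3% called, against 7.03% of all genes). The median was 0.033, and 6 genes of the list were not measured. The guanylate-binding protein gene Gbp5 rose by 0.38, the immunity-related GTPase gene Iigp1 by 0.33, the receptor kinase gene Jak2 by 0.27 and the feedback inhibitor Socs1 by 0.21. The gene that fell was Gbp3 (-0.17), chosen after its values were seen. Leaving out 1 array ended the call of Iigp1 in 3 fits, those without the second Cre-ERT2 array or ERT2 array 1 or 3 (limma adjusted p up to 0.0602), and that of Socs1 in every such fit but the one without Cre-ERT2 replicate 2 (up to 0.143).

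No gene was called by limma among 9 endoplasmic reticulum chaperones of class I folding (0 at an unadjusted p under 0.05, median 0.0092), 10 cytosolic peptidases (4, median -0.059) or 14 proteasome accessory and assembly genes (3, median -0.041). Over all genes 7.03% were called and 23% had an unadjusted p under 0.05. Of the peptidase and accessory lists 2 and 9 genes were not measured. Ganab and Uggt1, which act on the sugar chains that the folding chaperones read, were both at 0.063. The peptidase genes Nln and Prep were at -0.14 (limma adjusted p = 0.0616) and -0.12 (0.116). The proteasome shuttle gene Ddi1 was at -0.18 (limma adjusted p = 0.0513) and the cap deubiquitinase gene Uchl5 at -0.12 (0.133). Of the ubiquitin and ubiquitin-activating genes only Uba6 was measured by a probe set of its own, at -0.0033.

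The arrays hold RNA of whole cultures, so fewer cells of a type and less RNA per cell cannot be told apart. Of 11 measured pre-B markers Dntt (0.86) and Cd22 (0.27) rose and Rag2 (-0.71) and Rag1 (-0.38) fell (36.4% called, against 7.03% of all genes). Igll1 (0.051) and Cd79b (0.093) did not pass. The summed linear level of this list ran from 71074 to 72374 in Cre-ERT2 arrays and from 69943 to 70998 in ERT2 arrays. Among 10 myeloid markers Lyz2 rose by 0.45 and Fcgr1 by 0.35, and the other 8 did not pass (20% called). In this list 5 of the 10 had negative fold changes, down to -0.13 for Elane (chosen after its values were seen), Cd68 was at 0.055, and the median was 0.018. Positive fold changes made up 50% of the list, against 31.8% of all genes, whose median was -0.037. The summed level of the 10 markers ran from 3766 to 3828 with Cre-ERT2 and from 3408 to 3530 with ERT2. Without Lyz2 and Fcgr1 the sum over the 8 other markers ran from 2290 to 2324 with Cre-ERT2 and from 2334 to 2359 with ERT2. Those 2 genes were left out because they were called in these data, so this sum does not show whether myeloid cells differed. The part of such cells in the class I values was not tested. The Fcgr1 call ended on leaving out the first or second Cre-ERT2 array, or ERT2 array 2 or 3 (limma adjusted p up to 0.112). No marker could be called absent, since the detection limits are unknown.

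The summed level of 7 dendritic cell markers ran from 1804 to 1876 with Cre-ERT2 and from 1835 to 1875 with ERT2. None of them was called by limma (0 called, against 7.03% of all genes, and 2 at an unadjusted p under 0.05, against 23%). Fold changes were positive for 1 of the 7, Batf3 (0.16), and negative for 6, among them Zbtb46 (-0.072). The median was -0.072, against -0.037 over all genes, of which 31.8% had positive fold changes. Of 10 T and NK cell markers Ncr1 fell by 0.23 (10% called, against 7.03% of all genes). This call was lost after quantile normalization (limma adjusted p up to 0.0620 over all alternatives), after cyclic loess and without Cre-ERT2 replicate 1. Cd3e and Cd8a were at -0.023 and -0.073. In this list 9 of the 10 had negative fold changes, and the median was -0.073. The summed T and NK level ran from 2240 to 2282 with Cre-ERT2 and from 2278 to 2437 with ERT2. None of 7 stromal or 3 erythroid markers was called by limma (1 and 0 at an unadjusted p under 0.05), with Col1a1 at -0.083, Col1a2 at -0.10, Tfrc at -0.023 and Epor at -0.0022. The summed stromal level ran from 2966 to 3021 with Cre-ERT2 and from 3017 to 3171 with ERT2, and the erythroid one from 6736 to 7064 with Cre-ERT2 and from 6670 to 7303 with ERT2.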

How the data were processed

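The authors deposited 1 table of log2 values, 1 per probe set and array. The tools RMA and Partek 6.5 are credited to the submitters' processing notes, and which step each served is not known here. The background setting and genome build are not given in the sources used here. Values ran from 3.10 to 14.64, with array medians from 8.61 to 8.68.

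Of 35556 probe sets 21789 had 1 gene symbol, which gave 19938 genes. Levels of different probe sets are not on 1 scale, so no finding ranks genes by level. Mean level served only to pick a gene's probe set and some marker genes to name, and summed marker levels only to compare arrays. All 6 arrays entered 1 fit with lmFit and eBayes of limma 3.58.1 (R 4.3.3), with Benjamini-Hochberg adjustment over all genes. The fit was also run on simulated arrays with independent noise. That check required no recovery of changes as small as those of the 55 genes. Precision is limited by having 3 arrays per group, and the SE of a log2 difference had a median of 0.0477. The 95% intervals are limma's, for 1 gene at a time.

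The rule for named genes took Bcor, the immunoproteasome and class I genes, every called member, the highest and lowest uncalled member of each proteasome group, up to 4 called genes of each other list (or the 2 of smallest p), and for marker lists also the 2 of highest mean. The members and lists were chosen with earlier results of these data known. Promoter sequences are RefSeq's. Alternatives were a replicate block, an intensity trend, array weights, quantile normalization, median centring, cyclic loess, dropping the dimmest 30% of genes, averaging all probe sets of each gene, an adjusted p of 0.1, and leaving out each array. Figures used matplotlib 3.10.9 and pandas 2.3.3 under Python 3.11.15.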

Additional observations from a re-analysis of the deposited data

How the results depend on the processing

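The replicate numbers do not mark a shared culture in the labels. Deviations of same-numbered arrays correlated at 0.051, -0.095 and -0.26, and those of differently numbered arrays at -0.29 to 0.31. The numbers were therefore not taken as pairs, and other structure shared among arrays was not tested. With the replicate block 805 genes were called in place of 1402, with 0 proteasome genes outside the immunoproteasome and 1 class I gene, Tap1. The call of Tapbp then lay at an adjusted p of 0.0501 and that of Psmg4 at 0.0849. The block also ended the calls of H2-Bl (0.0834), H2-T24 (0.0579), Nfe2l1 (0.0833) and Iigp1 (0.0560). With array weights 3339 genes were called, with 2 such proteasome genes (Psmg4 and Psmd10, both lower) and 1 immunoproteasome gene (Psmb8, 0.13, adjusted p = 0.0482). At an adjusted p of 0.1 the count over all genes was 2271. With 1 array left out the counts ran from 743 to 1341 over all genes, from 0 to 0 for these proteasome genes, from 0 to 0 for the immunoproteasome and from 0 to 2 for class I genes. No setting other than array weights called an immunoproteasome gene. Psma8, H2-Bl, Ddi1, Iigp1 and Ncr1 were among the dimmest 30% of genes, so the setting that dropped those gave no result for them.

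Signs turned in 24 of the values of named genes, and none of these was called. Nlrc5 turned with array weights (-0.0059). After quantile normalization Psmd5 (0.013), Uba6 (0.022), Cd3e (0.0086), Tfrc (0.0065) and Epor (0.026) turned, as they did after cyclic loess, where Psmd5 was at 0.012, Uba6 at 0.022, Cd3e at 0.011, Tfrc at 0.0024 and Epor at 0.032. With median centring Uba6 (0.0010) and Epor (0.0021) turned. With 1 array left out the fold changes that turned ran from -0.0084 to 0.022 for Psma7, from -0.0197 to 0.083 for Psmc2, from -0.012 to 0.045 for Psmd4, from -0.021 to 0.0039 for Psmd5, from -0.025 to 0.023 for Uba6, from -0.091 to 0.025 for Cd3e, from -0.059 to 0.011 for Tfrc, from -0.033 to 0.022 for Epor. The cause was not tested in any of these cases. Of the other values of named genes 808 kept their sign and their side of the threshold, 46 lost a call and 17 gained one. With 3 arrays per group no array was tested as an outlier within its group.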
